A study of Mus musculus with 16 samples.

Results

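The Gimap genes encode a family of GTP-binding proteins, the GTPases of immunity-associated proteins. Here their 8 mouse members with a named probe set (Gimap1, Gimap3, Gimap4, Gimap5, Gimap6, Gimap7, Gimap8 and Gimap9) were followed in developing thymocytes, out of 19531 genes with a named probe set. They were chosen by their array signals, which were high together in DN4 cells of T cell receptor transgenic mice, so that pattern is described below with no test. Each gene had 1 probe set with its symbol alone.

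Gene expression was measured on 16 Affymetrix Mouse Gene 1.0 ST arrays, 2 for each of 8 groups, from sorted thymocytes of mice aged 4 weeks. The groups, each with its label in parentheses, were BDC2.5 transgenic cells on the NOD background (BDC/NOD), BDC2.5 transgenic cells on the B6g7 background (BDC/B6g7), non-transgenic NOD cells (NOD) and non-transgenic B6g7 cells (B6g7), each sorted at the DN4 and the DN2-3 stage. BDC2.5 is a T cell receptor cloned from a diabetogenic CD4 T cell clone of a NOD mouse. NOD mice develop autoimmune diabetes, and B6g7 mice are C57BL/6 mice that carry the NOD type H2g7 histocompatibility locus, so that both backgrounds share that locus. Cells bearing CD4 or CD8 were first removed with complement, and DN4 cells were sorted as CD4-CD8-Lin-CD44-CD25- and DN2-3 cells as CD4-CD8-Lin-CD25+. "BDC" stands below for the transgenic and "non-Tg" for the polyclonal mice. All non-Tg arrays came from females, while replicate 1 of each BDC group was male and replicate 2 female. The labels name replicates but not whether each was a separate animal or a pool, so each p-value reflects the spread between arrays only, and this may be technical.

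The arrays had medians of 123.1 to 138.2 on the linear scale, and replicate arrays correlated at 0.986 to 0.997, lowest for NOD DN2-3, whose 2 arrays differed by a median of 0.25 log2 against 0.07 to 0.13 elsewhere. Il2ra, which encodes CD25, averaged 9.10 to 10.38 log2 in the 4 DN4 groups and 12.36 to 13.20 in the 4 DN2-3 groups, in the order the sort sets. Cd8b1, a CD8 chain that the sort should leave out at the surface, averaged 11.08 in B6g7 DN4 cells and 6.75 to 9.44 in the other 7 groups. In a sorted population measured in bulk, fewer cells of a type and less RNA per cell cannot be told apart.

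Gimap proteins bind GTP through a domain of their own, related to that of septins, and are found mostly in lymphocytes, where they are best known for keeping T cells alive. Gimap1, Gimap3 and Gimap5 end in a stretch that anchors them to membranes, while Gimap4, Gimap6, Gimap7, Gimap8 and Gimap9 lack such an anchor. In the rat, loss of Gimap5 causes lymphopenia and underlies the autoimmune diabetes of the BB strain. In thymocyte development, DN2-3 cells rearrange T cell receptor beta genes, and cells that succeed proceed through DN4 towards the CD4+CD8+ stage.

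The 8 genes lie side by side on chromosome 6 (RefSeq, GRCm38.p6), from 48647186 to 48770851, a span of 123.7 kb. Their order is Gimap8 (gene ID 243374), Gimap9 (317758), Gimap4 (107526), Gimap6 (231931), Gimap7 (231932), Gimap1 (16205), Gimap5 (317757) and Gimap3 (83408). Gimap8 starts the cluster at 48647186 to 48660875, Gimap4 occupies 48684578 to 48692062, Gimap5 48746197 to 48754200, and Gimap3 ends it at 48764464 to 48770851. The 2 other annotated genes inside the span, a pseudogene and a long non-coding RNA, had no probe set. Gimap3 and Gimap5 are close paralogs, and whether their probes also bind the other's transcript was not analysed here.

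Since these neighbours differ from each other in their signals, the start-site windows of the pair with the largest and the pair with the smallest measured BDC minus non-Tg difference in DN4 cells are shown. Gimap3 holds its place by a measured difference from non-Tg signals not above background (below), and its lower bound lies under the differences of Gimap8, Gimap6 and Gimap5. Each window spans 250 bases before to 50 after the annotated start (RefSeq, GRCm38.p6), written 5′ to 3′ on the gene's strand. Capitals mark matches on either strand to TGTGGT (a RUNX core), CAGNTG (an E-box) and CACCC (a KLF core).
Gimap4, chr6:48684328-48684627, plus strand: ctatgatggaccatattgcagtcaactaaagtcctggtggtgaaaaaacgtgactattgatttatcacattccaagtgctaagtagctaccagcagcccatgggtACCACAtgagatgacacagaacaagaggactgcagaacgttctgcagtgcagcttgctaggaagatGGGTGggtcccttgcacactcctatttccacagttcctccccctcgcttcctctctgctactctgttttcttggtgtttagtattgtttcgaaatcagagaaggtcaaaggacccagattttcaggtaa
Gimap3, chr6:48770802-48771101, minus strand: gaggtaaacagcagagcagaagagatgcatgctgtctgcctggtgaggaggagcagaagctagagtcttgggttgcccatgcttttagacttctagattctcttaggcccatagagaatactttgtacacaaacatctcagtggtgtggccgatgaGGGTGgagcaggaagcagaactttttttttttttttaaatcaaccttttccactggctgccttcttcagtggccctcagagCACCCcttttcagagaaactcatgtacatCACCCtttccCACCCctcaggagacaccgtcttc
Gimap1, chr6:48738797-48739096, plus strand: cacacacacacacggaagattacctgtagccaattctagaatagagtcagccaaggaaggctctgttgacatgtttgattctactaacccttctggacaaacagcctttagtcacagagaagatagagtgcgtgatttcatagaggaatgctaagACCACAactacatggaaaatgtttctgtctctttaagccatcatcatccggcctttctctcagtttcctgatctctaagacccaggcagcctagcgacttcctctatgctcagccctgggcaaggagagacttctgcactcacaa
Gimap9, chr6:48675885-48676184, plus strand: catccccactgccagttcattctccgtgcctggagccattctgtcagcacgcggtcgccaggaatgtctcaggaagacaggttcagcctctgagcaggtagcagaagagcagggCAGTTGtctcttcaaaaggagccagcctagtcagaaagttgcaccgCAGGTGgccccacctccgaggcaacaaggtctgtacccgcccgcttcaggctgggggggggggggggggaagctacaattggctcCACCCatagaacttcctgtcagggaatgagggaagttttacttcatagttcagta
These letters did not divide the pairs into 2 kinds. Gimap4 held 1 RUNX and 1 KLF match and Gimap3 held 4 KLF matches, while Gimap1 held 1 RUNX match and Gimap9 2 E-boxes and 1 KLF match.

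All 8 genes matched a RefSeq window, with 9 windows in all because Gimap8 has 2. Both strands were searched for 6 motifs, and short motifs match many windows. The ETS core GGAAG was in 9 of 9 Gimap windows and in 71.4% of all 32817 windows of the same length. The KLF core was in 6 of 9 against 57.5% of all, and the E-box in 4 of 9 against 51.4%. TGTGGT was in 3 of 9 against 16.8%, CTTTGA (TCF/LEF) in 2 of 9 against 16% and TGTTTAC (FOXO) in 1 of 9, that of Gimap3, against 3.65%. A match is a run of letters and not a shown binding site, and E-box and KLF matches can overlap other motifs.

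The pattern for which the genes were chosen was strongest in Gimap4, whose product is known from mouse work to act in T cell death and maturation. Its signal was 10.01 and 9.97 log2 in BDC/NOD DN4 cells and 10.96 and 11.28 in BDC/B6g7 DN4 cells. In non-Tg DN4 cells it was 7.36 and 7.24 for NOD and 7.02 and 7.12 for B6g7. No array of one genotype overlapped the other, and the difference, BDC minus non-Tg averaged over strains, was 3.37 ± 0.08 (SE), the 14th highest of 10689 genes tested. By the same difference Gimap8 stood 132nd at 1.59 ± 0.09, Gimap6 179th at 1.49 ± 0.08 and Gimap5 198th at 1.45 ± 0.10.

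Gimap6, which takes part in autophagy, had 11.43 and 11.49 log2 in BDC/NOD DN4 and 12.09 and 12.14 in BDC/B6g7 DN4, against 10.16 and 10.05 in NOD DN4 and 10.61 and 10.39 in B6g7 DN4. Gimap8, a long member with several GTP-binding domains, had 8.09 and 8.25 in BDC/NOD DN4 and 8.79 and 8.74 in BDC/B6g7 DN4, against 6.86 and 6.69 in NOD DN4 and 6.82 and 7.15 in B6g7 DN4. For Gimap7, whose human form stimulates GTP hydrolysis by other family members, the values were 7.12 and 7.26 in BDC/NOD DN4 and 7.41 and 7.17 in BDC/B6g7 DN4, against 6.37 and 6.34 in NOD DN4 and 6.49 and 6.48 in B6g7 DN4. Each of these 3 genes, like all other members, was higher on every BDC DN4 array than on any non-Tg DN4 array. No share of all genes lying apart in this way is given and the genes were chosen for this rise, so nothing is read from it. Of the 3, Gimap7 differed least, by 0.82 ± 0.09. Xist, which male mice hardly express, read 5.70 to 6.73 on male arrays, and all non-Tg signals of Gimap7 lay in that range. With lower signals raised to 6.73, a floor set once these values were known, Gimap7 differed by at least 0.51 in DN4.

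Among the membrane-anchored members, Gimap5, needed in mice for the survival of lymphocytes, had 8.30 and 8.33 log2 in BDC/NOD DN4 and 9.15 and 9.19 in BDC/B6g7 DN4. It had 7.37 and 7.32 in NOD DN4 and 7.36 and 7.12 in B6g7 DN4. Gimap3 had 6.29 and 6.25 in BDC/NOD DN4 and 7.98 and 8.19 in BDC/B6g7 DN4, against 5.38 and 5.25 in NOD DN4 and 5.49 and 5.32 in B6g7 DN4. On arrays of female mice, which have no Y chromosome, Y-linked probe sets read up to 5.98, and no Gimap3 signal of a non-Tg array exceeded that level. Outside BDC/B6g7 DN4 no Gimap3 signal exceeded 6.73, the highest of Xist on a male array. With lower signals raised to 6.73, the Gimap3 difference in DN4 was at least 0.68 averaged over strains and at least 1.35 in B6g7, and in NOD no bound above 0 is left, since neither group exceeds that level.

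Gimap1 and Gimap9 had the smallest differences of the 8. Gimap1, which mouse T and B cells need to survive, had 8.01 and 8.06 log2 in BDC/NOD DN4 and 8.57 and 8.39 in BDC/B6g7 DN4, against 7.94 and 7.80 in NOD DN4 and 7.73 and 7.88 in B6g7 DN4. Gimap9 had 10.30 and 10.41 in BDC/NOD DN4 and 10.20 and 10.20 in BDC/B6g7 DN4, against 9.90 and 9.78 in NOD DN4 and 9.92 and 9.82 in B6g7 DN4. Both averaged 0.42 ± 0.07 higher in BDC DN4 cells, at places 1870 and 1849 of 10689, where 28.7% of all genes tested were called higher in BDC at an adjusted p under 0.05. The members' median difference was 1.47 and that of all genes -0.03, which the choice of the members fixes.

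**Figure D1:**
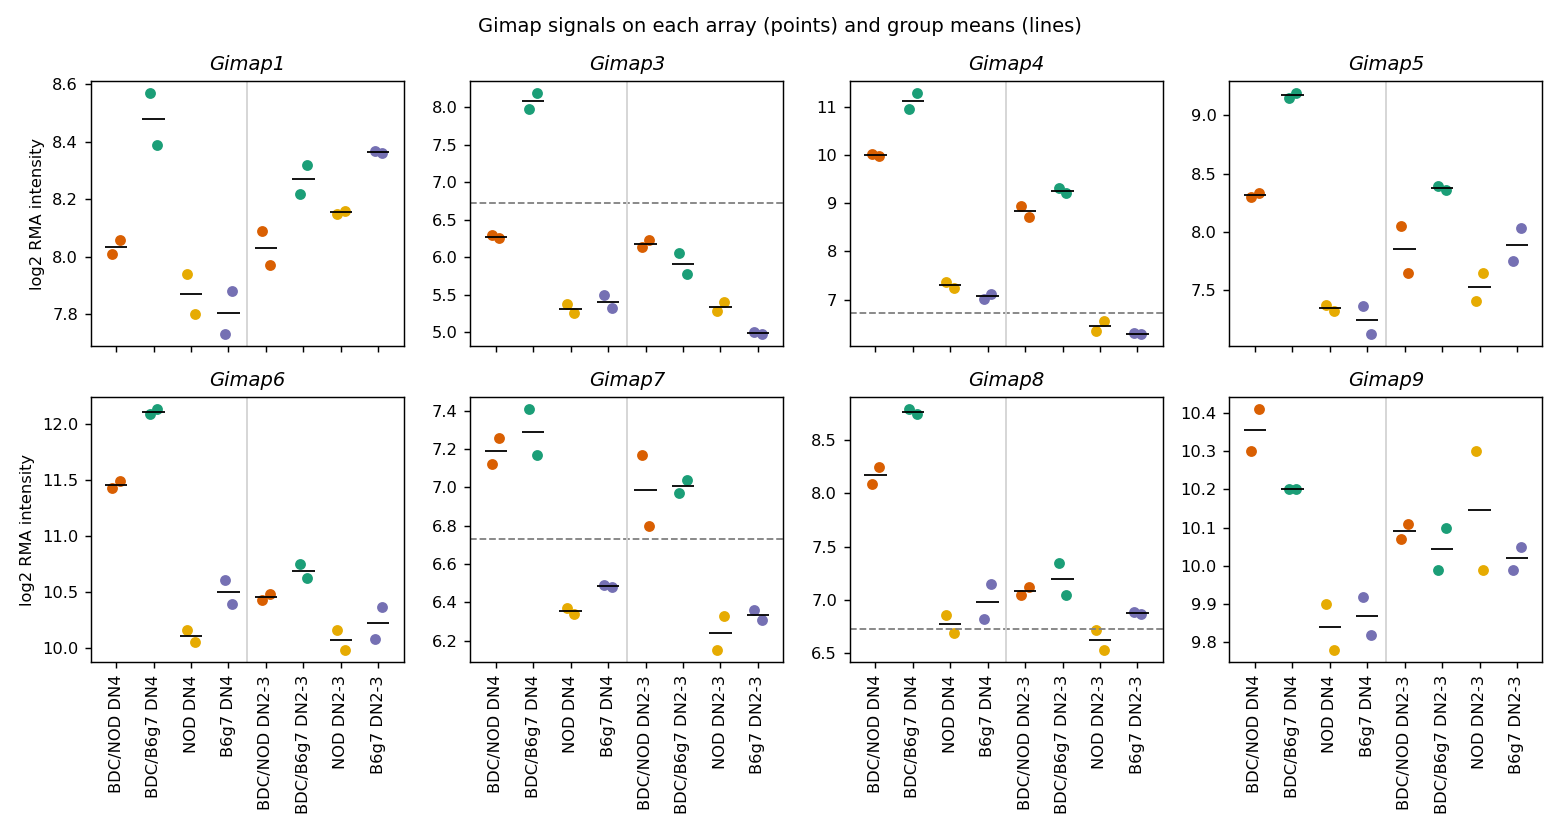
Log2 RMA intensity of the 8 Gimap genes on each of 16 arrays (points) with group means (lines), DN4 groups left of the grey line and DN2-3 groups right of it, BDC groups left of non-Tg groups at each stage, and each panel on its own scale. Gimap4 lies at 9.97 to 11.28 in BDC DN4, 7.02 to 7.36 in non-Tg DN4, 8.72 to 9.31 in BDC DN2-3 and 6.28 to 6.56 in non-Tg DN2-3, and the dashed line in the panels of Gimap3, Gimap4, Gimap7 and Gimap8 marks 6.73, the highest Xist signal on a male array.

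The genes just outside the cluster had smaller differences. For 10 neighbours, 5 on each side, the BDC minus non-Tg difference in DN4 was -0.23 (Repin1, a zinc finger gene) to 0.22 (Tmem176a, a transmembrane gene), and the correlation of their 8 group means with the Gimap mean ran from -0.80 to 0.16. Repin1 ends 48.1 kb before the cluster and Tmem176b, at -0.20, begins 63.0 kb after it. Of the 10 neighbours, 5 were too dim for the test.

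The members also differed in how closely they followed each other. Over the 8 group means, Gimap6 and Gimap8 correlated at 0.99 and Gimap4 and Gimap7 at 0.97, and the pairs among Gimap3 to Gimap8 lay at 0.83 or above. Gimap1 correlated with the others at 0.33 to 0.78, closest to its neighbour Gimap5, and Gimap9 at 0.46 to 0.66. These 8 means rest on the same 16 arrays, and the correlations only describe them.

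The order of the groups showed the same split. For Gimap4 no group's 2 arrays overlapped those of the next, with BDC/B6g7 DN4 highest, then BDC/NOD DN4, BDC/B6g7 DN2-3, BDC/NOD DN2-3, NOD DN4, B6g7 DN4, NOD DN2-3 and B6g7 DN2-3. For Gimap7 the 2 BDC DN4 groups overlapped each other, as did the 2 BDC DN2-3 groups, and all 4 BDC groups lay above all 4 non-Tg groups. For Gimap8 the 2 BDC DN4 groups stood apart, and from there down to B6g7 DN2-3 each group overlapped the next. For Gimap1 the second highest group was B6g7 DN2-3 at 8.37 ± 0.01 (SD, n = 2), just under BDC/B6g7 DN4 at 8.48 ± 0.12. For Gimap9 each group from BDC/B6g7 DN4 down to B6g7 DN2-3 overlapped the next, and the 2 non-Tg DN4 groups were lowest.

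The strain comparison, NOD against B6g7, was not itself used to choose the genes and asks whether their signals differed between the backgrounds. The averaged comparison and that in BDC DN4 cells hold the arrays on which the genes were chosen to be high. Neither is therefore free of that choice. Averaged over genotype and stage, 6 of 8 members were lower in NOD, where 14.9% of all genes tested were called lower. The averaged difference was -0.41 ± 0.07 for Gimap5 (adjusted p = 0.00036, limma with Benjamini-Hochberg adjustment, as for all tests below) and -0.36 ± 0.06 for Gimap6 (adjusted p = 0.000226). It was -0.29 for Gimap4 and Gimap8 and -0.21 for Gimap1, while Gimap7 (-0.08, adjusted p = 0.299) and Gimap9 (0.07, adjusted p = 0.285) did not pass. Gimap4 was lower in NOD only in BDC cells, with -1.13 in DN4 and -0.43 in DN2-3. In non-Tg cells Gimap4 had 0.23 in DN4 and 0.17 in DN2-3, the latter on signals no higher than 6.73, and neither passed. Gimap1 (-0.21) and Gimap8 (-0.22) lost their averaged calls when the 4 male arrays were dropped. All 8 entered the test, but Gimap3 and Gimap7 passed its filter on low values (a group mean of at least 7.05 log2) only through BDC DN4 groups and Gimap8 only through BDC groups, and the number called lower was 6 as well with no filter. Gimap3 averaged -0.32, from -1.81 in BDC DN4 beside 0.35 in non-Tg DN2-3 and 0.27 in BDC DN2-3, both measured on signals no higher than 6.73.

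In BDC DN4 cells 6 of 8 members were lower in NOD, where 15.3% of all genes were called lower. The genes were chosen for a rise in these cells, so this count is not free of that choice. Gimap3 differed most, with 6.29 and 6.25 log2 in BDC/NOD against 7.98 and 8.19 in BDC/B6g7, a difference of -1.81 ± 0.11 as measured (adjusted p = 1.24e-07) and of -1.35 with signals raised to 6.73, which the BDC/NOD arrays did not exceed. Gimap3 passed the filter on low values only through BDC/B6g7 DN4, the higher group of this comparison. Gimap4 was lower by -1.13 ± 0.12 (adjusted p = 7.54e-06) and Gimap5 by -0.86 ± 0.14 (adjusted p = 0.000242). Gimap6 (-0.66 ± 0.11), Gimap8 (-0.59 ± 0.13) and Gimap1 (-0.44 ± 0.10) were lower too. In all 6 genes both BDC/NOD arrays lay below both BDC/B6g7 arrays. No share of all genes lying apart in this way is given, so nothing further is read from it. Gimap7 had -0.10 ± 0.12 (adjusted p = 0.551) and Gimap9 0.16 ± 0.10 (adjusted p = 0.263). The members' median was -0.62 and that of all genes 0.05. With the 4 male arrays left out, so that each BDC group has 1 array, 3 members passed: Gimap3 at -1.94, Gimap4 at -1.31 and Gimap5 at -0.86.

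In polyclonal cells fewer members passed. In non-Tg DN4 cells only Gimap6 passed, with 10.16 and 10.05 log2 in NOD against 10.61 and 10.39 in B6g7 (-0.39 ± 0.11, adjusted p = 0.0323), where 4.75% of all genes were called lower. The other 7 differences lay between -0.21 and 0.23, and the median of all genes was 0.13 there, 0.00 after quantile normalization again and 0.20 after centring, which left Gimap6 short of the threshold (-0.32, adjusted p = 0.0528). So did leaving out B6g7 DN4 replicate 1 (adjusted p = 0.214), NOD DN4 replicate 1 (adjusted p = 0.0691), NOD DN4 replicate 2 (adjusted p = 0.205) or the 4 male arrays (adjusted p = 0.144). In non-Tg DN2-3 cells no member passed limma's adjusted threshold, with differences of -0.36 (Gimap5) to 0.35 (Gimap3, on signals not above background) and 10.6% of all genes called in either direction, while 3 of 8 had an unadjusted p under 0.05. In BDC DN2-3 cells Gimap5 (-0.53 ± 0.14, adjusted p = 0.0284) and Gimap4 (-0.43 ± 0.12, adjusted p = 0.0382) were lower in NOD, where 5.66% of all genes were called lower. That count of 2 became 0 without the 4 male arrays, when the arrays were quantile normalized again, and without BDC/NOD DN2-3 replicate 2 or either BDC/B6g7 DN2-3 replicate. Gimap4 alone was lost in several other settings, among them no filter (adjusted p = 0.0652) and leaving out BDC/NOD DN2-3 replicate 1 (adjusted p = 0.053).

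The difference between strain effects was tested directly, as the NOD minus B6g7 difference in BDC DN4 cells less that in non-Tg DN4 cells. It equals the BDC minus non-Tg difference in NOD DN4 less that in B6g7 DN4. The genes were chosen for a rise in these BDC DN4 cells, so this test is not free of that choice. For 4 of 8 members this interaction was below 0 and passed, where 10.9% of all genes were called lower. It was -1.72 ± 0.16 for Gimap3 (adjusted p = 2.86e-05), -1.36 ± 0.17 for Gimap4 (adjusted p = 0.000155), -0.96 ± 0.19 for Gimap5 (adjusted p = 0.004) and -0.51 ± 0.13 for Gimap1 (adjusted p = 0.0173). The BDC minus non-Tg difference of these 4 genes in DN4 was thus smaller in NOD than in B6g7, for Gimap4 2.69 ± 0.12 in NOD and 4.05 ± 0.12 in B6g7. For Gimap6 (-0.26), Gimap8 (-0.38), Gimap9 (0.18) and Gimap7 (0.02) the interaction did not pass, at adjusted p = 0.16 to 0.933, and Gimap8 passed after quantile normalization again (-0.57, adjusted p = 0.0287). With Gimap3 signals raised to 6.73 its interaction was -1.35, on BDC/B6g7 DN4 as the only group above that level. Gimap3 also passed the filter on low values only through that group. Without the 4 male arrays only Gimap3 and Gimap4 passed, and Gimap1 lost its call without replicate 1 of BDC/NOD, BDC/B6g7, NOD or B6g7 DN4 (adjusted p = 0.0653, 0.0806, 0.072 and 0.069 in that order).

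**Figure D2:**
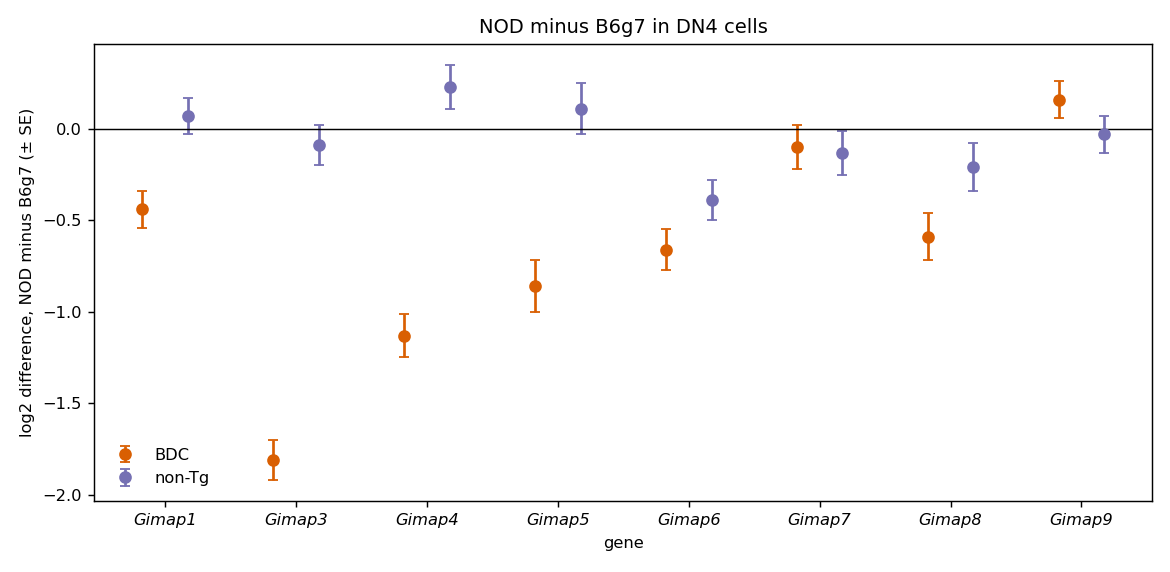
NOD minus B6g7 log2 difference (± SE, 2 arrays per group) of each Gimap gene in DN4 cells, BDC mice (orange) left of non-Tg mice (purple). The BDC points run from -1.81 (Gimap3) to 0.16 (Gimap9), and the non-Tg points from -0.39 (Gimap6) to 0.23 (Gimap4).

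In DN2-3 cells, which come before DN4, the transgene comparison shows which members were already higher in BDC mice at the earlier stage. Averaged over strains 6 of 8 were higher in BDC, where 29.8% of all genes were called higher. Gimap4 had 8.94 and 8.72 log2 in BDC/NOD DN2-3 and 9.31 and 9.20 in BDC/B6g7 DN2-3, against 6.36 and 6.56 in NOD DN2-3 and 6.30 and 6.28 in B6g7 DN2-3. Its difference was 2.66 ± 0.08 (adjusted p = 1.38e-10), against 3.37 in DN4. All 4 non-Tg signals lay within the range of Xist on male arrays, and with signals raised to 6.73 the Gimap4 difference was at least 2.31.

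Gimap7 was higher by 0.71 ± 0.09 (adjusted p = 3.31e-05), with 7.17 and 6.80 log2 in BDC/NOD and 6.97 and 7.04 in BDC/B6g7 against 6.15 and 6.33 in NOD and 6.36 and 6.31 in B6g7. These non-Tg signals too lay within the Xist range, and the Gimap7 difference was at least 0.26 with signals raised to 6.73. Gimap3 was higher by 0.89 ± 0.08 as measured (adjusted p = 2.47e-06), but no DN2-3 array of either genotype exceeded 6.73, so no bound is given. Gimap6 (0.42 ± 0.08), Gimap5 (0.40 ± 0.10) and Gimap8 (0.39 ± 0.09) were higher too, Gimap8 by at least 0.34 with signals raised to 6.73. Gimap1 (-0.11, adjusted p = 0.183) and Gimap9 (-0.01, adjusted p = 0.892) did not pass. Without the 4 male arrays Gimap5 had 0.30 (adjusted p = 0.118) and Gimap8 0.33 (adjusted p = 0.0824). The members that passed the filter only through BDC groups had to be higher in some BDC group, and the count was 6 with no filter too. The BDC DN2-3 arrays are also the baseline of the stage comparison in BDC mice, so this test is not free of the choice of the genes. Of 16 early DN stage markers tested, 1 was higher and 11 were lower in BDC, beside 29.8% of all genes higher and 19.3% lower. Their median was -0.58 against 0.05 for all genes. Their summed linear signal was 14421 to 15059 in BDC/NOD DN2-3 and 15742 to 15815 in BDC/B6g7 DN2-3, against 22043 to 26793 in NOD DN2-3 and 24054 to 26001 in B6g7 DN2-3, and their part in the Gimap differences was not tested.

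Within strains 5 members passed in each, all higher in BDC, where 21.5% of all genes were called higher in NOD and 16.8% in B6g7. Both counts include Gimap3 and Gimap7, which passed the filter on low values only through BDC DN4 groups. No DN2-3 signal of Gimap3 exceeded 6.73, so in both strains its calls rest on signals no higher than Xist reached on male arrays. Above 5.98, the highest of Y-linked genes on female arrays, lay 2 signals of BDC/NOD DN2-3 and 1 of BDC/B6g7 DN2-3. Gimap4 was higher by 2.37 ± 0.12 in NOD and by 2.96 ± 0.12 in B6g7 as measured, or by at least 2.09 in NOD and 2.52 in B6g7 with signals raised to 6.73. Gimap8 passed in NOD (0.46, adjusted p = 0.0153) and had 0.32 in B6g7 (adjusted p = 0.0795), where it passed after quantile normalization again (adjusted p = 0.0466), after centring (adjusted p = 0.0455), with array weights (adjusted p = 0.0236) and with only the arrays compared (adjusted p = 0.0407), while Gimap5 had 0.32 in NOD (adjusted p = 0.0861) and passed in B6g7 (0.49, adjusted p = 0.0173). Both NOD DN2-3 signals of Gimap8 lay under 6.73, and with signals raised to that level its difference in NOD was at least 0.35. Whether the strains differ in these transgene effects was not tested. Gimap5 in B6g7 was lost without B6g7 DN2-3 replicate 1 or either BDC/B6g7 DN2-3 replicate (adjusted p = 0.0697 to 0.161), and Gimap8 in NOD without either BDC/NOD DN2-3 replicate (adjusted p = 0.0578 and 0.0879). Without the 4 male arrays 3 members passed in each strain, and in NOD 2 passed with array weights or with only the arrays compared.

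**Figure D3:**
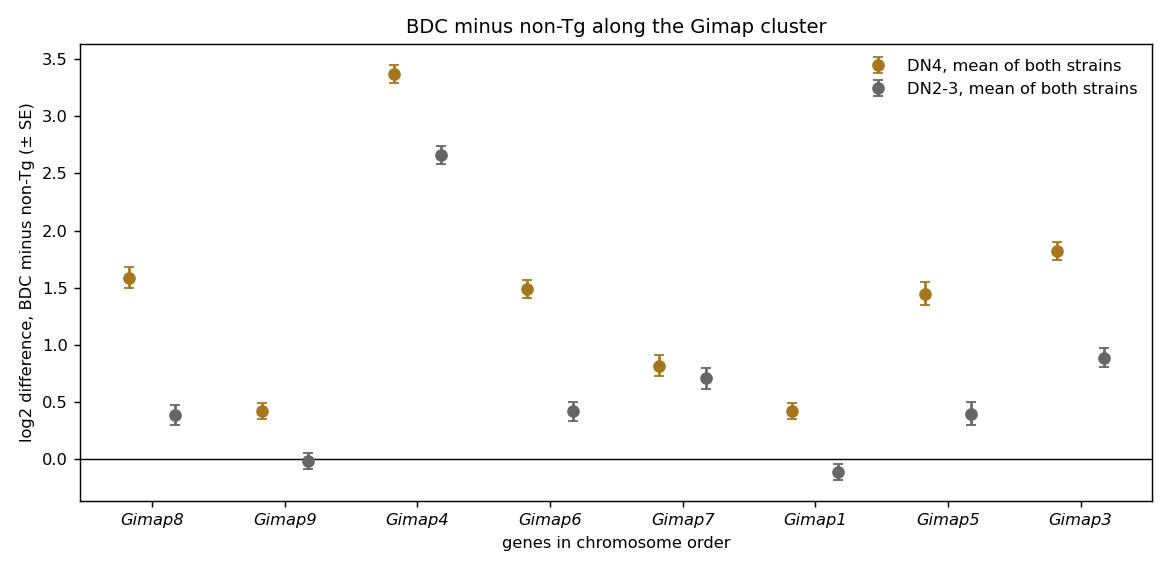
BDC minus non-Tg log2 difference (± SE, mean of both strains) of the 8 Gimap genes in their order on chromosome 6, DN4 cells (brown) left of DN2-3 cells (grey), with Gimap3 as measured on signals partly not above background. In DN4 the points run from 0.42 to 3.37, in DN2-3 from -0.11 to 2.66, and in both stages Gimap4 lies highest.

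The stage comparison, DN4 against DN2-3, was made within each genotype. In BDC mice, where the stage difference took part in the choice of the genes and has no test, DN4 minus DN2-3 averaged over strains was 1.52 for Gimap4, 1.33 for Gimap8, 1.22 for Gimap6, 1.13 for Gimap3, 0.63 for Gimap5, 0.25 for Gimap7, 0.21 for Gimap9 and 0.11 for Gimap1. Gimap3 had 0.09 ± 0.11 in BDC/NOD and 2.17 ± 0.11 in BDC/B6g7 as measured, where it was at least 1.35 with signals raised to 6.73. Gimap4 had 1.16 ± 0.12 in BDC/NOD and 1.87 ± 0.12 in BDC/B6g7. In this comparison 22.0% of all genes were called higher in DN4.

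In non-Tg mice 1 member was higher in DN4 and 3 were lower, where 26.6% of all genes were called higher and 21.5% lower. Gimap4 was higher by 0.81 ± 0.08 (adjusted p = 4.97e-06), by 0.84 in NOD and 0.78 in B6g7, and with signals raised to 6.73 by at least 0.45. Gimap1 fell, with 7.94 and 7.80 log2 in NOD DN4 and 7.73 and 7.88 in B6g7 DN4 against 8.15 and 8.16 in NOD DN2-3 and 8.37 and 8.36 in B6g7 DN2-3 (-0.42 ± 0.07, adjusted p = 0.000185). Gimap5 (-0.41 ± 0.10, adjusted p = 0.00319) and Gimap9 (-0.23 ± 0.07, adjusted p = 0.0214) were lower as well. Gimap6 (0.16), Gimap7 (0.13) and Gimap8 (0.12) did not pass, and Gimap3 was not above background at either stage. The Gimap9 call was lost after centring, with array weights, with only the arrays compared, without the 4 male arrays and without any of 4 single arrays (B6g7 DN4 replicate 2, NOD DN4 replicate 2, B6g7 DN2-3 replicate 2 or NOD DN2-3 replicate 1), at adjusted p = 0.0586 to 0.0846. The non-Tg DN4 arrays are also the baseline of the transgene comparison in DN4.

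Within strains Gimap5 had -0.18 in NOD (adjusted p = 0.311) and passed in B6g7 at -0.65 (adjusted p = 0.00235). Gimap1 passed in both, at -0.29 in NOD and -0.56 in B6g7, and Gimap9 in NOD at -0.30. Both NOD calls were lost with no filter, after centring, with array weights, with only the arrays compared and without the 4 male arrays, Gimap1 also without NOD DN2-3 replicate 1 or NOD DN4 replicate 2 (adjusted p = 0.0547 and 0.213), and Gimap9 without NOD DN2-3 replicate 1 or NOD DN4 replicate 1 or 2 (adjusted p = 0.268, 0.059 and 0.199). Gimap4 passed as higher in DN4 in both strains, where 26.3% of all genes were called higher in NOD and 17.8% in B6g7. Gimap3 was also called higher in B6g7 (0.42, adjusted p = 0.00963), but on signals not above background at either stage. The shares called lower in DN4 were 12.3% in NOD and 25.0% in B6g7.

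Genes of similar pattern were named by the correlation of their 8 group means with the mean of the 8 Gimap genes, each centred on its own mean. The correlation was taken for 10681 genes, and predicted genes (symbols starting with Gm or LOC or ending in Rik) were left out of the naming. The 10 highest of the rest were Ppm1l (0.995), Klf2 (0.992), Rab27b (0.990), Chd7 (0.989), Ccr7 (0.986), Rab19 (0.985), Rasgrp1 (0.985), Arhgef3 (0.984), Slc37a3 (0.983) and Il12rb1 (0.983). Klf2 encodes a transcription factor of quiescent T cells, Ccr7 a chemokine receptor of migrating lymphocytes and Rasgrp1 an activator of Ras below the T cell receptor. Klf2 averaged 8.64 log2 in BDC/NOD DN4 and 9.61 in BDC/B6g7 DN4, against 7.58 in NOD DN4 and 7.52 in B6g7 DN4. The correlation was 0.95 or more for 74 genes, the median over all genes was -0.090 and the 99th percentile 0.939.

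**Figure D4:**
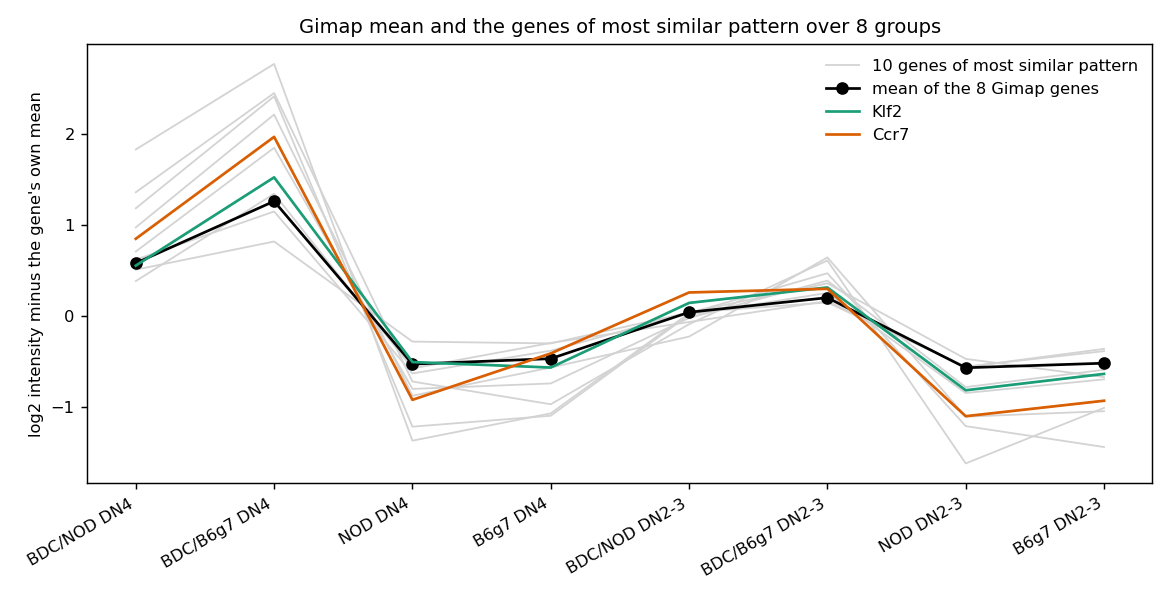
Log2 intensity minus the gene's own mean over 8 groups for the mean of the 8 Gimap genes (black) and the 10 genes of most similar pattern, predicted genes left out (grey, with Klf2 in green and Ccr7 in orange), DN4 groups left of DN2-3 groups. Each of these 11 lines is highest in BDC/B6g7 DN4, second highest in BDC/NOD DN4 and below 0 in all non-Tg groups, as the choice of the genes by this pattern fixes.

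A list of T cell quiescence and egress genes, of which Klf2, Ccr7 and S1pr1 are members, was set beside the Gimap genes. Of 23 entries 20 were tested. In BDC DN4 cells 13 were lower and 1 higher in NOD, where 15.3% of all genes were called lower and 25.8% higher, with a median of -0.68 against 0.05 for all genes. S1pr1, the receptor that lets T cells leave the thymus, differed by -1.78 ± 0.12 (adjusted p = 2.62e-07), Itgb7, a gut homing integrin, by -1.39 ± 0.21 (adjusted p = 0.000131), Cd27, a costimulatory receptor, by -1.24 ± 0.11 (adjusted p = 2.24e-06) and Ccr7 by -1.12 ± 0.17 (adjusted p = 0.000127). The strain by transgene interaction was below 0 and passed for 11 of 20, where 10.9% of all genes were called lower.

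In DN2-3 cells the list was divided, with 6 higher and 9 lower in BDC, where 29.8% of all genes were called higher and 19.3% lower, and a median of -0.14 against 0.05 for all genes. S1pr1 (1.54 ± 0.09), Ccr7 (1.30 ± 0.12), Itgb7 and Klf2 (0.96 each) were higher, while Il7r, the interleukin 7 receptor, named here after its values were seen, was lower (-0.86 ± 0.08). From DN2-3 to DN4 in non-Tg mice 4 were higher and 8 lower, beside 26.6% and 21.5% of all genes, Il7r by -1.38 ± 0.08.

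The Bcl2 family, which decides between survival and mitochondrial cell death and to which Gimap5 has been linked, did not move one way. Of 17 entries 12 were tested, and in BDC DN4 cells 2 were higher and 2 lower in NOD, where 25.8% of all genes were called higher and 15.3% lower. Bid, which promotes cell death, was higher (1.60 ± 0.09, adjusted p = 5.51e-08), as was the survival gene Bcl2l1 (0.36 ± 0.13, adjusted p = 0.0347), while the cell death gene Bmf (-0.98 ± 0.13, adjusted p = 4.95e-05) and the survival gene Bcl2 (-0.40 ± 0.11, adjusted p = 0.00954) were lower. In DN2-3 cells 4 were higher and 2 lower in BDC, beside 29.8% of all genes higher and 19.3% lower, among them Bid (0.60), Bcl2 (0.42) and Bcl2l1 (0.38) higher and Bmf (-0.87) lower. From DN2-3 to DN4 in non-Tg mice 2 were higher and 4 lower, beside 26.6% and 21.5% of all genes, Bcl2 by -1.71 ± 0.08. With 12 genes tested, nothing about the family is read from these counts.

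Markers of gamma-delta T cells, taken as a sum, were higher in BDC than in non-Tg cells at both stages, though not each marker was. Of 14 entries 7 matched a named probe set, the receptor constant genes not among them. Their summed linear signal was 9176 to 9826 in BDC/NOD DN4 and 16221 to 17425 in BDC/B6g7 DN4, against 1151 to 1213 in NOD DN4 and 1417 to 1464 in B6g7 DN4. In DN2-3 it was 4412 to 4637 in BDC/NOD and 6639 to 6677 in BDC/B6g7, against 1274 to 1385 in NOD and 1473 to 1484 in B6g7. Of 6 tested, 6 were higher in BDC DN2-3 cells, where 29.8% of all genes were called higher. In BDC DN4 cells 5 were lower and 1 higher in NOD, where 15.3% of all genes were called lower and 25.8% higher. Sox13, a transcription factor of these cells, averaged 9.64 log2 in BDC/NOD DN4 and 11.08 in BDC/B6g7 DN4, against 7.92 in NOD DN4 and 8.52 in B6g7 DN4. Zbtb16, also on the list, did not follow the Gimap order. It averaged 7.89 in BDC/NOD DN4 and 7.17 in BDC/B6g7 DN4, against 7.48 in NOD DN4 and 7.50 in B6g7 DN4. Il23r averaged 4.76 to 5.09 over all groups. The part of such cells in the Gimap differences was not tested.

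Markers of mature alpha-beta T cells summed to 7102 to 7226 in BDC/NOD DN4 and 9756 to 11170 in BDC/B6g7 DN4, against 5963 to 6153 in NOD DN4 and 8312 to 8665 in B6g7 DN4, over 13 of 15 entries. The list's median difference with the transgene in DN4 was -0.02 against -0.03 for all genes. Of 12 tested, 5 were higher and 4 lower in BDC, where 28.7% of all genes were called higher. The share of all genes called lower is not given here, and nothing about the list is read from these counts. Cd8b1 averaged 9.16 log2 in BDC/NOD DN4 and 8.02 in BDC/B6g7 DN4, against 9.44 in NOD DN4 and 11.08 in B6g7 DN4, and 5 entries, among them S1pr1, Klf2 and Ccr7, are also on the quiescence and egress list. The part of such cells in the Gimap differences was not tested. The defining natural killer genes Klrb1c and Ncr1 averaged at most 4.06 and 5.08 log2 in any group, under the 5.98 of Y-linked genes on female arrays. Of the B cell genes, Cd79a (5.01 to 5.41), Ms4a1 (4.63 to 4.92) and Ebf1 (5.04 to 5.68) averaged under that level in each group, while Cd79b averaged 8.62 to 9.64 and Igll1 6.65 to 7.97. The B cell list, 9 of 10 entries, summed to 890 to 917 in BDC/NOD DN4 and 1154 to 1200 in BDC/B6g7 DN4, against 977 to 978 in NOD DN4 and 955 to 971 in B6g7 DN4, and its part in the Gimap differences was not tested. The natural killer list's sum, 1634 to 1655 in BDC/NOD DN4 and 3819 to 3984 in BDC/B6g7 DN4 against 694 to 710 in NOD DN4 and 827 to 876 in B6g7 DN4, rested on Nkg7, which DN2-3 cells of all 4 genotypes also carried at 10.52 to 11.52.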

How the data were processed

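The authors deposited linear RMA intensity values, computed with Affymetrix Power Tools per the submitters' processing notes. Versions and settings are not given in the sources used here. They were taken as log2 with no pseudocount. Of 25108 probe sets, 21157 had 1 gene symbol, 1341 several and 2610 none, by GEO's platform annotation, and the brightest probe set stood for each of 19531 genes. The 10689 genes with a group mean of at least 7.05 log2 were fitted with limma (3.58.1, R 4.3.3) on the 8 group means, with Benjamini-Hochberg adjustment and a threshold of 0.05. The number of arrays, 2 per group, limits the precision. Tested on simulated data with 200 genes changed, the fit recovered known changes. Named were all 8 members, 5 neighbours on each side, the 10 genes of most similar pattern with predicted genes left out, and up to 4 called members with the largest change of each list. The members and lists were chosen with earlier results of these data known. Motifs, neighbours and coordinates come from RefSeq tables (GRCm38.p6). Alternatives were quantile normalization again, centring, no filter, the mean of all probe sets, array weights, sex as a covariate, a replicate block, only the arrays compared, each array left out, and, added after seeing the data, the 4 male arrays left out.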

Additional observations from a re-analysis of the deposited data

Results flagged for a closer look

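The effect of the transgene in DN4 cells differed between NOD and B6g7 for 4 Gimap genes, by limma's test of the interaction. The genes were chosen for a rise in BDC DN4 cells, so this test is not free of that choice. The BDC minus non-Tg difference was smaller in NOD by -1.72 for Gimap3, -1.36 for Gimap4, -0.96 for Gimap5 and -0.51 for Gimap1 (log2). For Gimap3 it was 0.96 in NOD and 2.68 in B6g7 as measured. Its signals exceeded 6.73, the highest of Xist on a male array, only in BDC/B6g7 DN4. The difference was 2.69 in NOD and 4.05 in B6g7 for Gimap4, and 0.96 in NOD and 1.93 in B6g7 for Gimap5. For Gimap1 it was 0.16 in NOD and 0.67 in B6g7. The summed gamma-delta T cell markers of BDC DN4 cells were also lower in NOD, at 9176 to 9826 in BDC/NOD and 16221 to 17425 in BDC/B6g7, and their part in the interaction was not tested.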

How the results depend on the processing

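The counts of members called were within 1.5 times of those given in 550 repeats under an alternative and moved further in 48. Some of these repeats could hardly move a count. Each member has 1 probe set, so the mean of all probe sets left its values as they were, and arrays left out often lay outside the comparison. With the replicate number as a replicate block, 6 members were lower in NOD in BDC DN4, 4 interactions passed and 6 members were higher in BDC DN2-3, and no count of members moved. Same-numbered replicates correlated over 0.1 in 12 of 28 group pairs (-0.25 to 0.58), so they were not taken as pairs, though same-numbered BDC replicates share their sex; in 7 of 8 groups they correlated on average with their own number. Without the 4 male arrays 3 members were lower in NOD in BDC DN4 (6 given), 2 interactions passed (4), 3 were higher in BDC in B6g7 DN2-3 (5) and 3 in NOD DN2-3 (5, and 2 with array weights or only the arrays compared). The members lower in NOD in BDC DN2-3 (2) were 1 with no filter, 1 with sex as a covariate, 0 after quantile normalization again and 0 without male arrays. Those lower in DN4 in NOD non-Tg (2) were 0 with no filter, centring, array weights, only the arrays compared or no male arrays. Those lower in NOD in non-Tg DN4 (1) were 0 after centring and without male arrays. Higher in DN4, non-Tg mice had 3 after centring (1), and B6g7 non-Tg mice 1 after quantile normalization again (2). Leaving out each array in turn, the same counts ranged from 6 to 6 (BDC DN4), 3 to 4 (interaction), 0 to 2 (BDC DN2-3), 0 to 1 (non-Tg DN4), 0 to 1 in each direction (non-Tg DN2-3), 3 to 6 (BDC in B6g7 DN2-3), 3 to 5 (BDC in NOD DN2-3), 0 to 2 (lower, NOD stage), 1 to 3 (higher, B6g7 stage), 1 to 2 and 2 to 3 (higher and lower, non-Tg stage), and 0 to 1 higher in the averaged strain comparison. Changes of sign occurred for 3 small values that passed no test. The Gimap7 interaction (0.02) was -0.15 after quantile normalization again, -0.06 after centring, 0.22 without male arrays and -0.10 to 0.15 with 1 array left out. Gimap9 in BDC DN2-3 (-0.01) was 0.05 after centring, 0.02 with sex as a covariate, 0.02 without male arrays and -0.09 to 0.06 with 1 array left out. The Gimap7 strain difference in BDC DN4 (-0.10) was 0.09 without male arrays and -0.22 to 0.02 with 1 array left out. The cause of these shifts was not tested, but leaving out arrays leaves fewer samples and no filter more genes to adjust over.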
